A study of Homo sapiens with 8 samples.

Results

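Many oncofetal genes are active in the fetal liver, are low in the adult organ and return in hepatocellular carcinoma and hepatoblastoma. Fetal and adult liver were not measured here. The 10 genes described here were taken by name from the count matrix: AFP, GPC3, IGF2, H19, DLK1, IGF2BP1, IGF2BP2, IGF2BP3, LIN28B and HMGA2. All 10 had a row among the 86369 Ensembl gene identifiers. Reads were counted for 9 of them, and these 9 were among the 13840 genes that passed the filter on low counts.

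The samples were HepG2 cells, an established line labelled hepatocellular carcinoma that is widely regarded as a hepatoblastoma line, grown in DMEM with fetal bovine serum. One group received a negative control siRNA (siCtrl, 4 libraries) and the other an siRNA against NAT10 (siNAT10, 4 libraries), both by lipofection, and RNA was collected after 2 days. Replicates 1 and 2 of both groups carried the label batch 1, and replicates 3 and 4 the label batch 2. NAT10 encodes an RNA cytidine acetyltransferase. The labels do not say whether the replicates were separate cultures, so the p-values measure only the spread between these libraries, which may be technical. The siRNA sequence is not given in the sources used here.

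Library totals ran from 9731718 to 27977110 counts and overlapped between the groups. NAT10, the targeted gene, had 44.7, 39.2, 77.8 and 48.9 CPM (counts scaled for library size) in siCtrl replicates 1 to 4 and 13.1, 12.2, 20.1 and 22.3 CPM in siNAT10, so the groups did not overlap and 31.6% of the siCtrl level was left (edgeR adjusted p 2.0e-05). The hepatocyte genes ALB (3232 to 4627 CPM), TF and HNF4A were all present. Of 14 listed markers of mature hepatocytes, only 10 passed the filter on low counts, though 0 lacked a count in every library. SERPINA1, another major hepatocyte product, was at only 5.91 ± 5.01 CPM in siCtrl (SD, n = 4). Of 13 markers of leukocytes, endothelium, fibroblasts and squamous epithelium, 7 had no count in any library, PTPRC, CD3E, KDR, COL1A2, COL3A1, KRT5 and TP63, and the 13 together summed to 32.8 to 43.4 CPM in siCtrl and 30.5 to 39.2 CPM in siNAT10, mostly from ACTA2.

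Zeros in this table need care. TUBB, a tubulin gene that dividing cells use, was listed at 0 in all 8 libraries. B2M had 1 count in all, ALDOA 4 and LDHA 18, and of the lipoprotein genes of hepatocytes APOB had 7 and APOE 17, while ACTB had 165791 and GAPDH 373820. These genes were picked after the H19 row had been seen. A value at or near 0 is therefore given below as listed, and is not read as absence of the RNA.

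The members fall into a small number of roles. AFP is the fetal counterpart of albumin, secreted into plasma, and GPC3 is a heparan sulfate proteoglycan anchored at the cell surface. IGF2 is a growth factor, H19 a non-coding RNA beside it on chromosome 11, and DLK1 a membrane protein related to the Notch ligands; all 3 genes are imprinted. IGF2BP1, IGF2BP2 and IGF2BP3 are RNA-binding proteins that stabilise and localise mRNAs. LIN28B blocks the maturation of let-7 microRNAs, and HMGA2, an architectural chromatin protein, is a classical let-7 target. In mature tissues let-7 holds down LIN28B, HMGA2 and the IGF2BP genes, and LIN28B in turn holds down let-7.

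The let-7 sequences are shown because they link members by a shared site. The 9 mature let-7 and miR-98 names examined in RefSeq (GRCh38.p14) had 1 common seed, bases 2 to 8, in capitals here.
hsa-let-7a-5p: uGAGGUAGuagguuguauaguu
hsa-let-7g-5p: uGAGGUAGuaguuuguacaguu
hsa-miR-98-5p: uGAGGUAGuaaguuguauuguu
The matching heptamer, CTACCTC, was searched on the sense strand of the 3' UTR of the canonical GENCODE 44 transcript. It occurred 14 times, in IGF2BP1 (4 sites), LIN28B (4), HMGA2 (4), IGF2BP2 (1) and IGF2BP3 (1). It was found in none of the 3' UTRs of AFP, GPC3, IGF2 and DLK1, which says only that these letters are not in those windows. Over all 19550 coding genes with a 3' UTR, 9.76% held it. The first site of each of the 5 carriers is given below, with the heptamer in capitals (GRCh38, sense strand).
IGF2BP1: gaagtaaaCTACCTCaaggtatg
IGF2BP2: agaagaagCTACCTCaggtgttt
IGF2BP3: ttactcaaCTACCTCaggtattc
LIN28B: tgcaaagtCTACCTCatgcaagt
HMGA2: ttcgatttCTACCTCagcagcag
These stretches lie at chr17:49051068-49051090 (plus strand), chr3:185644213-185644235 (minus), chr7:23311788-23311810 (minus), chr6:105078819-105078841 (plus) and chr12:65963305-65963327 (plus). The HMGA2 site starts 21 bases after the stop codon and the LIN28B site 44 bases after it, while those of IGF2BP3, IGF2BP2 and IGF2BP1 start at 560, 1304 and 1632 bases.

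**Figure D1:**
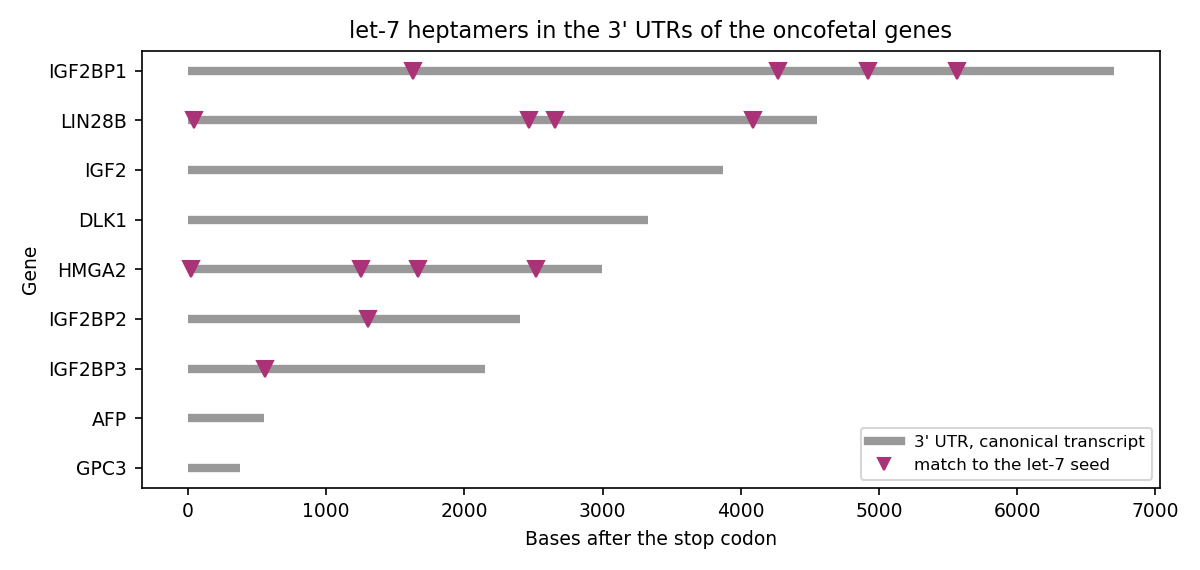
Position of let-7 seed matches (triangles) along the 3' UTR of each coding oncofetal gene (grey bars, canonical transcript), with the x axis in bases after the stop codon. IGF2BP1, LIN28B and HMGA2 hold 4 matches each, IGF2BP2 and IGF2BP3 hold 1 each, and AFP, GPC3, IGF2 and DLK1 hold none.

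Long 3' UTRs hold more matches, and the carriers differ in length. The 3' UTR measured 6701 bases in IGF2BP1, 4549 in LIN28B, 2999 in HMGA2, 2401 in IGF2BP2 and 2153 in IGF2BP3. IGF2 (3870 bases) and DLK1 (3328 bases) had no match at similar length, and AFP (554) and GPC3 (379) are short. Among 10885 tested genes with a 3' UTR, 1203 (11.1%) carried the heptamer, with a median length of 3105 bases against 1323 for all. Only 11 of them had 4 or more sites, and IGF2BP1, LIN28B and HMGA2 are 3 of these 11.

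The libraries count the 3' ends of polyadenylated transcripts, so a count does not grow with transcript length and levels are compared between genes as CPM, scaled by the TMM-adjusted library size. The level of a gene can still be too low where its reads were shared with an overlapping gene. It may also be too low for reasons that these sources do not show. H19, whose canonical exons no other GENCODE 44 gene overlaps, was listed at 0, and the cause was not tested. Only 61458 of the 86369 identifiers matched GENCODE 44, and overlaps with the others were not checked. The order and ranks of the members are therefore given as listed. AFP had the highest level of the members, with a mean of 1521 CPM over the 8 libraries and rank 80 among the 13840 tested genes. GPC3 followed at 939 CPM, IGF2BP1 at 396 CPM, HMGA2 at 394 CPM, DLK1 at 135 CPM and IGF2BP2 at 113 CPM. The lowest were IGF2BP3 at 33.3 CPM, IGF2 at 27.1 CPM and LIN28B at 22.3 CPM.

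Some neighbours in that order did not separate. The ranges over the 8 libraries overlapped between IGF2BP1 and HMGA2, between DLK1 and IGF2BP2, between IGF2BP3 and IGF2, and between IGF2 and LIN28B. AFP lay above GPC3, GPC3 above IGF2BP1, HMGA2 above DLK1 and IGF2BP2 above IGF2BP3 in all 8 libraries. The spread within a member was smallest for GPC3, with a coefficient of variation of 7.14%, and largest for HMGA2 (23.8%) and LIN28B (22.8%). The lowest count behind any value of these 9 genes was 203, for LIN28B in siNAT10 replicate 4, a counting error of 7.02%.

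**Figure D2:**
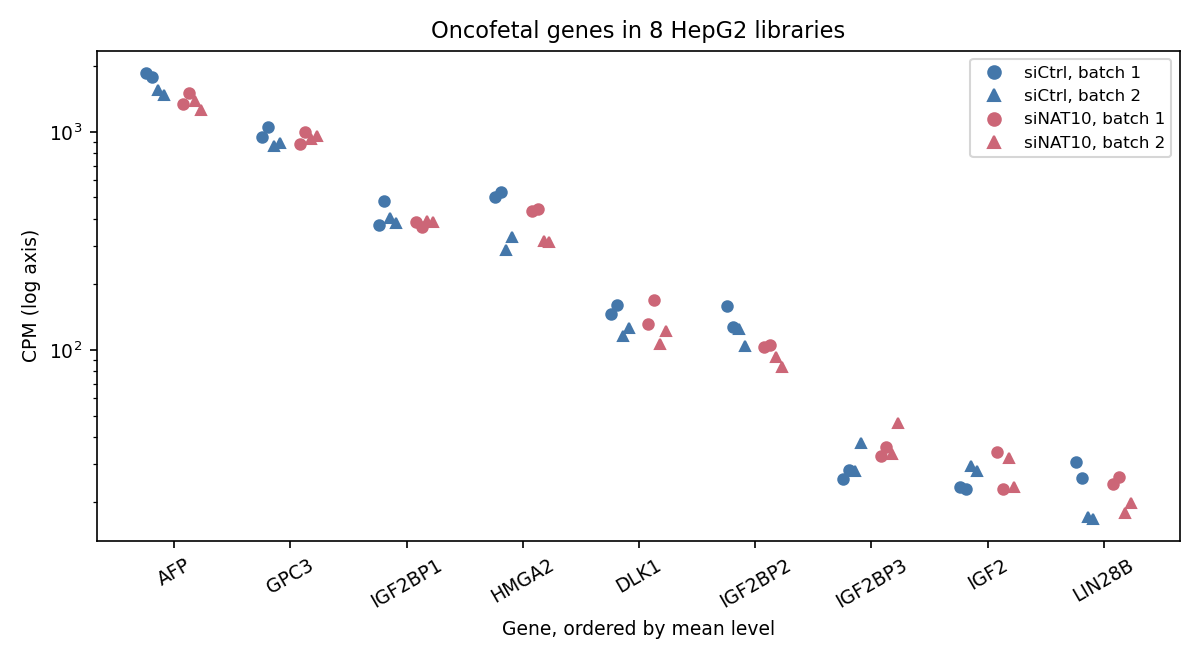
Level of each of the 9 counted oncofetal genes in the 8 libraries, in CPM on a log axis, with siCtrl in blue, siNAT10 in red, circles for batch 1 and triangles for batch 2. The genes span from AFP at 1265 to 1860 CPM to LIN28B at 16.8 to 30.5 CPM, and the triangles of HMGA2 and LIN28B lie below their circles.

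The main question was which of these genes change when NAT10 is depleted. Of the 9 tested members, 1 was called at an adjusted p under 0.05, IGF2BP2, which was lower in siNAT10 (edgeR quasi-likelihood test with batch as a term, adjusted over all 13840 genes). Over all tested genes 2.28% were called, 1.46% as lower and 0.816% as higher. DESeq2 also called IGF2BP2 alone among the 9, and it called 599 of all 13840 tested genes. AFP and IGF2BP3 had an unadjusted p under 0.05 and did not pass the adjustment; with IGF2BP2 these were 3 of 9 members, against 15.7% of all tested genes. The median log2 fold change of the 9 was -0.05, against -0.0024 over all genes. Below 0 were 6 of the 9, against 50.3% of all tested genes. For 0 of the 9 did the 4 siNAT10 libraries lie wholly apart from the 4 siCtrl libraries, which 5.4% of all tested genes did, 3.15% lower and 2.25% higher. Within each batch, IGF2BP2 and AFP had both siNAT10 libraries below both siCtrl libraries, 2 of 9, and such an order in 1 direction held for 14.7% of all tested genes (7.9% lower and 6.76% higher).

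IGF2BP2 (ENSG00000073792, chromosome 3, 185643130 to 185825042) stood at 158, 128, 125 and 104 CPM in siCtrl replicates 1 to 4. In siNAT10 it stood at 103, 106, 92.6 and 83.9 CPM. Both siNAT10 libraries lay below both siCtrl libraries within each batch, although siCtrl replicate 4 of batch 2 was below siNAT10 replicate 2 of batch 1. The group means were 129 ± 22.3 and 96.4 ± 10.1 CPM (SD, n = 4), a fall to 75.0% of the siCtrl level. On the log2 scale the change was -0.41, standard error 0.11 (edgeR adjusted p 0.0498).

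That call rests at the threshold. Its sign was the same in all 18 alternative analyses, between -0.47 and -0.34, but the adjusted p was under 0.05 in only 4 of them: DESeq2 (0.0107), no filter on low counts (0.0209), a replicate block (0.0317) and the edgeR fit without siCtrl replicate 4 (0.0491). It was not called in the other 7 fits that left out 1 library, those without siCtrl replicates 1, 2 or 3 or any siNAT10 replicate, with edgeR adjusted p from 0.0689 to 0.196, nor with RLE size factors (0.0548), a minimum mean of 10 counts (0.0504) or each batch alone. By batch, IGF2BP2 changed by -0.45 (batch 1) and -0.37 (batch 2) on the log2 scale.

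The paralogs gave no call. IGF2BP1, the most abundant of the 3, stood at 376, 481, 401 and 382 CPM in siCtrl and at 388, 366, 389 and 384 CPM in siNAT10. Apart from siCtrl replicate 2, the 8 values were within a narrow band, and the groups overlapped. Its log2 fold change was -0.10, with a 95% interval from -0.32 to 0.12 (edgeR adjusted p 0.706).

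IGF2BP3 stood at 25.5, 28.0, 27.8 and 37.3 CPM in siCtrl and at 32.7, 35.9, 33.3 and 46.1 CPM in siNAT10. The siNAT10 values were above both siCtrl values in batch 1, while in batch 2 siCtrl replicate 4 was above siNAT10 replicate 3. Its log2 fold change, 0.33 (standard error 0.13), did not pass the adjustment (edgeR adjusted p 0.210). MALSU1, on the other strand, covers all of the last 1000 bases of the canonical IGF2BP3 transcript. Without a stated strand setting, the reads of the 2 genes cannot be told apart there. MALSU1 itself was at 72.0 to 108 CPM, and its own log2 fold change was -0.07, not called (edgeR adjusted p 0.784).

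The balance of the paralogs was compared directly, a choice made after their values were seen. IGF2BP1 made up 67.1% to 75.6% of the summed IGF2BP level in siCtrl and 72.1% to 75.6% in siNAT10. The ratio of IGF2BP3 to IGF2BP2 was 0.161, 0.219, 0.223 and 0.358 in siCtrl and 0.317, 0.340, 0.359 and 0.549 in siNAT10. Both siNAT10 libraries of each batch were above both siCtrl libraries of that batch, and siCtrl replicate 4 lay among the siNAT10 values. The mean log2 ratio was 0.73 higher in siNAT10 (0.80 in batch 1 and 0.65 in batch 2), and no test is given, since the ratio was picked for this pattern.

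**Figure D3:**
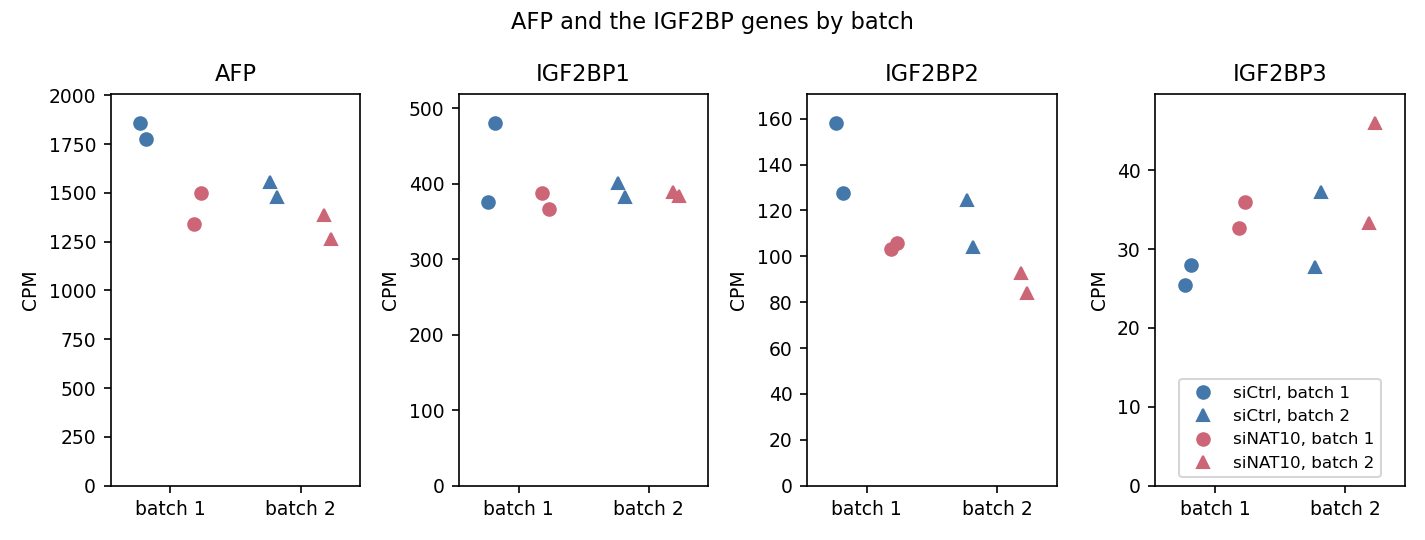
CPM of AFP, IGF2BP1, IGF2BP2 and IGF2BP3 in each library, by batch, on linear axes from 0; each point is 1 library, siCtrl in blue and siNAT10 in red. AFP and IGF2BP2 are lower in siNAT10 within both batches, IGF2BP1 overlaps, and IGF2BP3 is higher in batch 1 and overlaps in batch 2.

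AFP (ENSG00000081051, chromosome 4, 73431138 to 73456174) stood at 1860, 1779, 1556 and 1479 CPM in siCtrl and at 1343, 1499, 1389 and 1265 CPM in siNAT10. Within each batch both siNAT10 libraries were below both siCtrl libraries, and across batches siCtrl replicate 4 fell just below siNAT10 replicate 2. The group means were 1668 ± 180 and 1374 ± 97.9 CPM (SD, n = 4). On the log2 scale the difference was -0.28, standard error 0.10. The adjusted p was 0.188 in edgeR and 0.0682 in DESeq2, so AFP was not called by either.

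AFP's neighbour on chromosome 4 is ALB, the adult plasma protein gene, which ends at 73421482, upstream of the AFP start. ALB had mean levels of 4411 ± 175 CPM (siCtrl) and 3422 ± 198 CPM (siNAT10; SD, n = 4), which differed by -0.37 on the log2 scale (edgeR adjusted p 0.0717). The ratio of AFP to ALB, a fetal to adult ratio, was 0.402, 0.416, 0.347 and 0.347 in siCtrl and 0.380, 0.411, 0.424 and 0.391 in siNAT10. The siNAT10 ratios lay inside the siCtrl range except for replicate 3, which was just above it; in batch 2 both siNAT10 ratios were above both siCtrl ratios. Of the 9 tested genes of the albumin cluster and the regulators of AFP, 0 were called in edgeR. Among them 3 had an unadjusted edgeR p under 0.05, against 15.7% of all tested genes. DESeq2 called 2 of the 9, ALB and ZBTB20, and 599 of all 13840 tested genes. ZBTB20 and ZHX2, repressors of AFP after birth, had log2 fold changes of 0.44 and -0.20 (edgeR adjusted p 0.0885 and 0.572). The value of ZHX2 joins opposite signs, 0.21 in batch 1 and -0.62 in batch 2, a difference with an unadjusted interaction p of 0.0019 in edgeR that did not pass the adjustment over all genes.

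GPC3 (ENSG00000147257, chromosome X, 133535745 to 133987100) had the steadiest level of the members. It stood at 952, 1057, 857 and 885 CPM in siCtrl and at 883, 1002, 923 and 952 CPM in siNAT10. Its fitted log2 fold change was 0.0074, with a 95% interval from -0.21 to 0.22 (edgeR adjusted p 0.987). Of 14 tested genes for other glypicans, syndecans and heparan sulfate enzymes, 0 were called in edgeR or in DESeq2, with a median log2 fold change of -0.03. Among them 2 had an unadjusted edgeR p under 0.05, against 15.7% of all tested genes. Among the other glypicans GPC1 was listed at 40.6 CPM and GPC6 at 44.5 CPM in siCtrl, far below the listed level of GPC3 on this per-transcript scale.

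The imprinted members showed no call either. IGF2 (ENSG00000167244, chromosome 11, 2129112 to 2158391) stood at 23.6, 23.1, 29.5 and 27.8 CPM in siCtrl and at 34.0, 23.0, 32.0 and 23.5 CPM in siNAT10, with overlapping groups. Its log2 fold change was 0.12, with a 95% interval from -0.17 to 0.42 (edgeR adjusted p 0.737), and it was -0.03 without siNAT10 replicate 1. ENSG00000240801, a non-coding gene on the same strand that was listed at 0, shares 373 of the last 1000 bases of the canonical IGF2 transcript, and the readthrough gene INS-IGF2 (10 counts in all) shares 998 exonic bases. ENSG00000284779, a coding gene on the same strand that was also listed at 0, shares 2141 exonic bases, none of them among the last 1000. How reads in these overlaps were assigned is not given, so the level of IGF2 is uncertain.

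H19 (ENSG00000130600, chromosome 11, 1995166 to 2004552) was listed at 0 in all 8 libraries, out of 150446672 counts in all. It was the only member without a count and could not be tested. No other GENCODE 44 gene overlaps the exons of its canonical transcript, and the cause of the 0 was not tested. Identifiers outside GENCODE 44 were not checked for overlap with it. CDKN1C and PHLDA2, imprinted genes further along the same chromosome arm, were also listed at 0. Other genes of the imprinted list on that arm did have counts. Means over the 8 libraries were 134 CPM for KCNQ1OT1, 1.70 CPM for IGF2-AS and 0.40 CPM for SLC22A18.

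DLK1 (ENSG00000185559, chromosome 14, 100725705 to 100738224) stood at 146, 161, 116 and 126 CPM in siCtrl and at 131, 169, 107 and 122 CPM in siNAT10. The groups overlapped in both batches. DLK1 had a log2 fold change of -0.05, with a 95% interval from -0.28 to 0.17 (edgeR adjusted p 0.869). MEG3 and RTL1, imprinted with DLK1 on chromosome 14, were at 0.0325 and 0.0091 CPM in siCtrl. Of 9 tested Notch receptors, ligands and targets, 0 were called in edgeR or in DESeq2, with a median log2 fold change of -0.03. Among them 2 had an unadjusted edgeR p under 0.05, against 15.7% of all tested genes.

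LIN28B (ENSG00000187772, chromosome 6, 104936616 to 105083332) stood at 30.5, 25.8, 17.1 and 16.8 CPM in siCtrl and at 24.2, 26.1, 17.9 and 19.8 CPM in siNAT10. The siNAT10 values were above both siCtrl values in batch 2 and overlapped them in batch 1. LIN28B had a log2 fold change of -0.02, with a 95% interval from -0.26 to 0.23 (edgeR adjusted p 0.971), and its sign differed by batch, -0.16 in the libraries of batch 1 against 0.16 in those of batch 2. LIN28A, its paralog, was listed at 0.

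HMGA2 (ENSG00000149948, chromosome 12, 65824460 to 65966291) stood at 501, 531, 288 and 331 CPM in siCtrl and at 434, 440, 316 and 314 CPM in siNAT10. In batch 1 both siNAT10 libraries were below both siCtrl libraries, and in batch 2 they lay between them. HMGA2 had a log2 fold change of -0.11, with a 95% interval from -0.32 to 0.11 (edgeR adjusted p 0.664). The group means hide a larger difference between the batches than between the siRNAs.

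**Figure D4:**
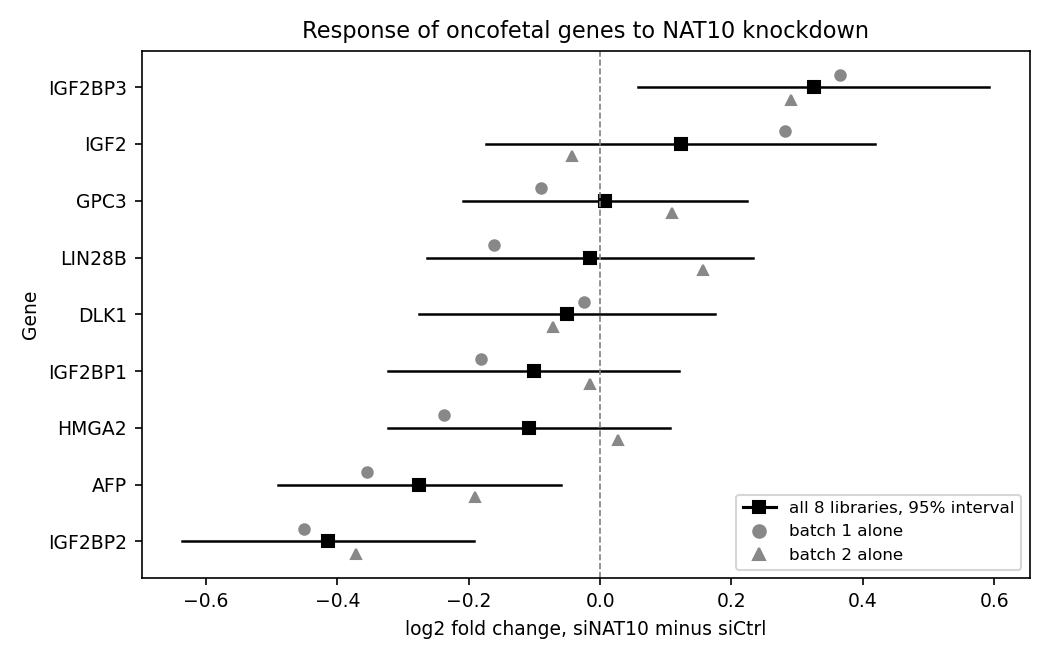
Log2 fold change, siNAT10 minus siCtrl, of the 9 tested oncofetal genes from all 8 libraries (squares, with the 95% interval of the fit) and from each batch alone (grey circles and triangles). The interval excludes 0 for IGF2BP2, AFP and IGF2BP3, of which IGF2BP2 at -0.41 passed the adjustment over all genes.

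The siRNA effect was compared between batches with an interaction term. It was called for 0 of the 9 members in edgeR and in DESeq2, with 0 at an unadjusted p under 0.05, the lowest edgeR p being 0.194 for LIN28B. Over all tested genes edgeR called 0% and DESeq2 1 gene, and 3.04% had an unadjusted edgeR p under 0.05.

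The batches themselves differed for 3 of the 9 members, HMGA2, LIN28B and DLK1, all lower in batch 2 (edgeR, batch term). Over all tested genes 25.3% were called between the batches and 12.2% were lower and 13% higher in batch 2, so batch differences were common in these libraries. HMGA2 fell from a mean of 476 CPM in batch 1 to 312 CPM in batch 2, a log2 difference of -0.60, standard error 0.10 (edgeR adjusted p 4.9e-04). LIN28B fell from 26.7 to 17.9 CPM, a log2 difference of -0.58, standard error 0.12 (edgeR adjusted p 0.0021).

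For HMGA2, LIN28B and DLK1 every batch 2 library was below every batch 1 library, a separation in either direction that 22.7% of tested genes showed. HMGA2 and LIN28B were called in all 14 alternatives, with log2 differences of -0.60 and -0.58 after thinning all libraries to the smallest total. DLK1 went from 152 to 118 CPM, a log2 difference of -0.37 (edgeR adjusted p 0.0178). DLK1 lost its call without siCtrl replicate 2 (edgeR adjusted p 0.0569), siNAT10 replicate 2 (0.0937) or siNAT10 replicate 3 (0.0717). IGF2BP2 was close to the threshold, with a batch difference of -0.28 (edgeR adjusted p 0.0583), and it was called without siCtrl replicate 2 (0.0494), without siCtrl replicate 3 (0.0433), with library size alone (0.0411) and in DESeq2 (0.0475). What the batch labels stand for is not given, and whether culture, passage or library preparation differed was not tested.

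**Figure D5:**
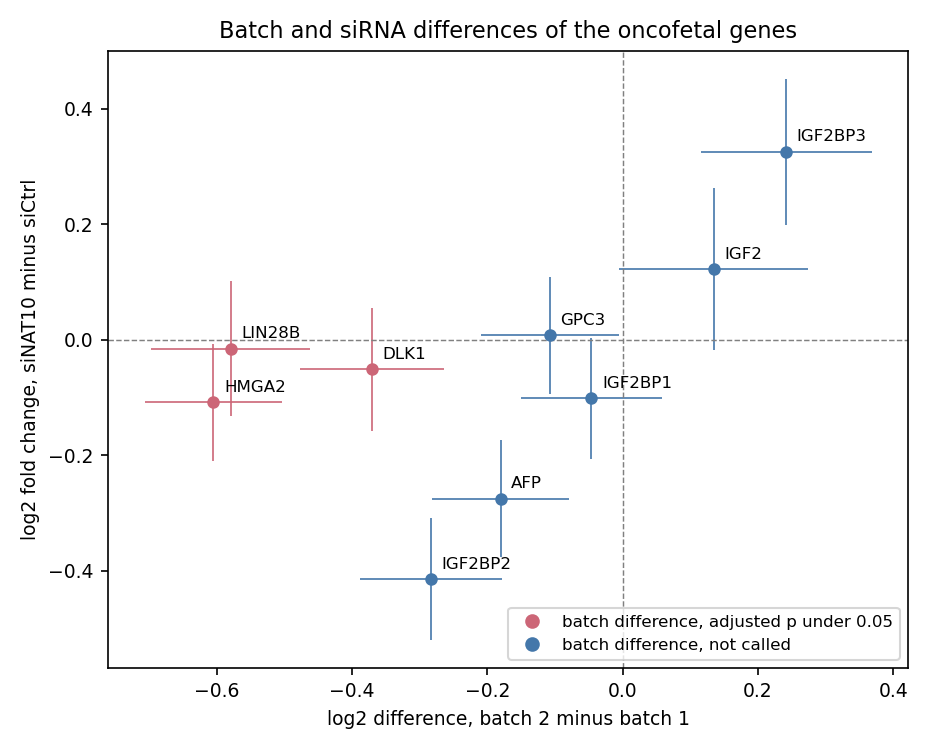
Log2 difference of batch 2 minus batch 1 (x axis) against log2 fold change of siNAT10 minus siCtrl (y axis) for the 9 tested genes, from the same fit, with bars of 1 standard error. HMGA2, LIN28B and DLK1 lie far left near 0 on the siRNA axis, while IGF2BP2 has the lowest siRNA value at -0.41.

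The let-7 carriers were then set beside the wider class. The 1203 tested genes with the heptamer had a median log2 fold change of 0.0025 between siNAT10 and siCtrl, against -8.3e-05 for all genes with a 3' UTR, with 11 called higher and 28 lower. These are 0.914% and 2.33% of the carriers, against 0.946% and 1.67% of all tested genes with a 3' UTR. The 2 sets were not matched for 3' UTR length (median 3105 bases in carriers against 1323), and the difference was not tested. Of 19 tested further let-7 targets and pathway factors, 0 were called in edgeR or in DESeq2. Among them 2 had an unadjusted edgeR p under 0.05, against 15.7% of all tested genes. The median was 0.07, with 13 of the 19 above 0 and 6 below, where 50.3% of all tested genes were below. The list joins targets with processing factors such as DICER1 and DROSHA, so these values do not describe targets alone. HMGA1, the paralog of HMGA2, had means of 1695 CPM (siCtrl) and 1803 CPM (siNAT10). TUT4, TUT7 and DIS3L2, enzymes that can mark or degrade let-7 precursors, had log2 fold changes of 0.25, 0.38 and 0.20 (edgeR adjusted p 0.372, 0.382 and 0.543).

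Another heptamer, GTCTCTA, had been picked out earlier on these same libraries because its carriers were lower. It was in the 3' UTRs of 15.4% of tested genes with a 3' UTR. It was in the 3' UTRs of none of the 9 coding members, IGF2BP2 and AFP included.

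Genes that act with the members were counted from lists. Of 10 tested IGF receptors, binding proteins and adaptors, 1 was called in edgeR, IGFBP2, a carrier of IGF2 in plasma, lower in siNAT10. Over all tested genes 1.46% were called lower. An unadjusted edgeR p under 0.05 was found for 5 of the 10, IGFBP1, IGFBP2, IGFBP3, IGFBP6 and IGF2R, against 15.7% of all tested genes. IGFBP2 stood at 170, 211, 315 and 208 CPM in siCtrl and at 140, 103, 121 and 114 CPM in siNAT10, and the groups did not overlap. On the log2 scale the change was -0.90, standard error 0.15 (edgeR adjusted p 0.0056), and it was called in all 8 fits that left out a library but not in batch 2 alone (0.129) or without the batch term (0.113). DESeq2 called 2 of the 10, IGFBP1 and IGFBP2, and 599 of all 13840 tested genes. The receptors IGF1R, INSR and IGF2R had log2 fold changes of 0.11, 0.11 and 0.36 and were not called (edgeR adjusted p 0.709, 0.653 and 0.308).

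Of 12 tested hepatoblast, progenitor and other onco-developmental markers, 1 was called in edgeR, where 1.46% of all tested genes were called lower. It was SOX4, a transcription factor of progenitor cells, which went from 228 ± 57.9 to 160 ± 43.7 CPM (SD, n = 4). Its log2 fold change was -0.53 (edgeR adjusted p 0.0229). An unadjusted edgeR p under 0.05 was found for 4 of the 12, against 15.7% of all tested genes. DESeq2 called 3 of the 12, SOX4, CD24 and MDK, and 599 of all 13840 tested genes. SOX4 kept its call only without siCtrl replicate 3 or siNAT10 replicate 4 among the 8 fits that left out 1 library, and had adjusted p from 0.0548 to 0.108 in the other 6. EPCAM, a surface marker of hepatoblasts, stood at 188 and 213 CPM and was not called (edgeR adjusted p 0.416). MDK, the growth factor midkine, had means of 114 and 80.5 CPM, and CD24, a surface glycoprotein, of 2.98 and 1.54 CPM, with no overlap between the groups for CD24. Neither was called in edgeR (adjusted p 0.0841 and 0.0885).

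Of 10 tested mature hepatocyte markers 2 were called lower and 0 higher in edgeR. Over all tested genes 1.46% were called lower and 0.816% higher. An unadjusted edgeR p under 0.05 was found for 4 of the 10, against 15.7% of all tested genes. DESeq2 called 3 of the 10, ALB, TF and CPS1, and 599 of all 13840 tested genes. CPS1, the first enzyme of the urea cycle, went from 12.4 ± 1.87 to 7.14 ± 0.73 CPM (SD, n = 4; log2 fold change -0.80, edgeR adjusted p 0.0109). TF, transferrin, went from 2086 ± 250 to 1474 ± 114 CPM (SD, n = 4; log2 fold change -0.49, edgeR adjusted p 0.0233). The list had a median log2 fold change of -0.27, lower than the -0.05 of the oncofetal genes; no test was made between the lists. CPS1 lost its call without siCtrl replicate 2 (edgeR adjusted p 0.0511) or siNAT10 replicate 2 (0.0671), and TF without siCtrl replicates 1 or 3 or siNAT10 replicates 1, 2 or 3 (0.0529 to 0.0910). Of 10 tested other imprinted genes 0 were called in edgeR or in DESeq2, with a median of 0.13. Among them 4 had an unadjusted edgeR p under 0.05, against 15.7% of all tested genes. Some lists share genes, so their counts are not separate. IGF2R is in the imprinted and the IGF lists, and ALB in the AFP regulator and the hepatocyte lists.

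The genes whose pattern was most like that of IGF2BP2 included LYZ and RBCK1, with Pearson r of 0.988 and 0.985 over the 8 libraries after batch means were removed. They are among the highest 3 of 13839 genes, so high values are given by the choice, and no p is attached. LYZ had a log2 fold change of -0.42, called (edgeR adjusted p 0.0432) but lost without any 1 of the libraries other than siCtrl replicate 4. RBCK1 had -0.23 and was not called (edgeR adjusted p 0.254).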

How the data were processed

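The authors deposited whole-number counts per Ensembl gene in 8 columns, 1 per library; per the labels, STAR 2.7.9a aligned the reads to GRCh38 and featureCounts counted them, and the submitters' processing notes also name Trim Galore 0.6.10 and cutadapt 3.5. The Lexogen QuantSeq kit is given as FWD in the series text and REV in the sample protocols; the annotation release, strand setting and treatment of ambiguous reads are not given in the sources used here. Columns were matched to samples through the sample descriptions, and 0 were left unused. Symbols, coordinates and 3' UTRs came from GENCODE 44 (61458 identifiers matched), microRNAs from RefSeq.

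Counts went into edgeR 4.0.16 under R 4.3.3: filterByExpr (minimum count 10), TMM, glmQLFit and glmQLFTest with batch and siRNA as terms, Benjamini-Hochberg adjustment over all tested genes, call at 0.05. Standard errors came from the F statistic and intervals from the fit's degrees of freedom. The fit was tested on simulated data. The 18 alternatives include DESeq2 1.42.0. Same-numbered libraries of the groups deviated together (correlations 0.39, 0.38, 0.45 and 0.36), but siCtrl replicate 1 was closer to siNAT10 replicate 2. These deviations include the batch difference, so they cannot show whether the numbers pair the libraries. A replicate block was fitted only as an alternative. Libraries of 1 group and batch differed by a chi-square per gene of 16.8 or more, where 1 is counting noise, so none was counted as a duplicate. Intervals cover no upstream loss of reads. The named genes were the members, NAT10, the called genes of each list (up to 4) and the 3 genes most like the member with the lowest adjusted p, of which 1 is not reported here; others are given as background to a member, chosen after values were seen. Members and lists were chosen with earlier results of these data known. Promoters and proteins are not used here.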

Additional observations from a re-analysis of the deposited data

How the results depend on the processing

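Of the 13840 tested genes 315 were called in the edgeR fit, 599 with DESeq2, 595 with no filter on low counts, 173 in batch 1 alone, 0 in batch 2 alone (946 at an unadjusted p under 0.05, and 34 called there by DESeq2) and 15 without the batch term, and between 75 and 286 when 1 library was left out (75 without siNAT10 replicate 2). With the replicate number as a block the calls were 454 genes and 1 member, the log2 fold change of NAT10 was -1.64, and the siRNA calls of the members, IGFBP2, SOX4, TF, CPS1 and LYZ did not change. The interaction was not run with that block, and the batch difference cannot be estimated beside it. The number of members called was 0 in place of 1 without the batch term, with RLE size factors, with library size alone, with a minimum mean of 10 counts, in batch 1 alone, in batch 2 alone and after thinning, and between 0 and 1 when 1 library was left out. NAT10 was not called in batch 2 alone (log2 fold change -1.58, edgeR adjusted p 0.0861) and lay between -1.79 and -1.52 when 1 library was left out. Between 2 and 4 members differed between batches when 1 library was left out. The median of the members was -0.16 in batch 1 alone. Uncalled values near 0 changed sign: GPC3 was -0.089 in batch 1 alone and between -0.018 and 0.063 when 1 library was left out. In batch 2 alone IGF2 was -0.043, LIN28B 0.16 and HMGA2 0.027, and LIN28B was 0.025 with library size alone. When 1 library was left out IGF2 ranged from -0.034 to 0.24, DLK1 from -0.13 to 0.015 and LIN28B from -0.071 to 0.073. AFP, IGF2BP1, IGF2BP2 and IGF2BP3 kept their sign in all 18 alternatives. Depth limits LIN28B and IGF2 most, with 203 and 240 counts in the shallowest library.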
